A study of Mus musculus with 6 samples.

Results

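Among 31053 features counted in PU.1-sorted hippocampal nuclei, 7 genes of growth factor signalling were followed: the ligands Csf1, Igf1, Tgfb1 and Hbegf and the receptors Csf1r, Igf1r and Flt1. They were listed by name and not by a cut-off on a measured value, but with earlier results of these data known. All 7 were present in all 6 count matrices. The samples were 6 libraries of single-nucleus RNA from mice aged 9.5 months, 1 library per genotype, each from the hippocampi of 3 pooled mice. The genotypes combined 3 backgrounds, labelled P301S/E4, P301S/EKO and E4, each with TREM2- and with TREM2+. P301S marks mutant tau, E4 marks APOE4, EKO marks the absence of Apoe and TREM2- the absence of Trem2. Every genotype therefore carries either E4 or EKO, and no other Apoe genotype was analysed here. The promoter driving mutant tau was not given in the sources used here. The comparisons were P301S/E4 against E4 (tau), P301S/E4 against P301S/EKO (APOE4) and TREM2- against TREM2+ in the same background.

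CSF1 and its receptor CSF1R keep microglia alive and drive their proliferation, and the receptor is a defining gene of the lineage. IGF1 acts on neurons and glia through IGF1R, and in the adult brain it is made by neurons, perivascular macrophages and activated microglia. TGF-beta 1 maintains the homeostatic microglial state, HB-EGF is shed from the cell surface to activate the EGF receptor, and FLT1 (VEGF receptor 1) binds VEGF-A, VEGF-B and placental growth factor and is best known from endothelial cells. Gpnmb and Lpl are induced in microglia near pathology, and Top2a marks dividing cells.

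Nuclei with at least 200 detected genes and at most 5% mitochondrial UMIs numbered 31738 of 33335, or 3582 to 7004 per library, with 3172124 to 8376816 UMIs (unique molecular identifiers, 1 per captured transcript) and a median of 569 to 915 UMIs per nucleus. Between libraries, 115 of 33220 distinct barcodes (0.346%) were shared. Trem2 was lower in each TREM2- library, at 580 against 1114 CPM (UMIs scaled to a common library total) in P301S/E4, 469 against 976 CPM in P301S/EKO and 348 against 917 CPM in E4, so transcripts assigned to it remained. Apoe was at 9.14 and 14.2 CPM in the P301S/EKO/TREM2- and P301S/EKO/TREM2+ libraries. The summed level of 9 microglia markers, all detected in every library, was 6625 to 7143 CPM in P301S/E4, 9064 to 9562 CPM in P301S/EKO and 13109 to 14814 CPM in E4. A library sum cannot tell fewer cells of a type from less RNA per cell.

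Csf1, the ligand, had its highest levels where tau and APOE4 were combined (ENSMUSG00000014599, GRCm38 chromosome 3, 107741048 to 107760469, minus strand, protein coding). It was at 140 CPM in the P301S/E4/TREM2- library and 228 CPM in the P301S/E4/TREM2+ library. In P301S/EKO it was at 43.8 CPM in TREM2- and 94.99 CPM in TREM2+, and in E4 at 8.47 CPM in TREM2- and 10.7 CPM in TREM2+. Both P301S/E4 libraries were above both P301S/EKO libraries, which were above both E4 libraries, and no 95% Poisson counting interval of one background overlapped that of another. The 2 E4 libraries did not differ from each other beyond counting error.

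In P301S/E4 against E4, Csf1 rose by 4.202 on the log2 scale (SE 0.20, adjusted p = 1.61e-06, edgeR quasi-likelihood test with Benjamini-Hochberg adjustment over 12515 genes). This test called 17% of the genes in either direction, 7.8% as higher and 9.24% as lower. Leaving out any single library kept the Csf1 change between 3.88 and 4.49. In P301S/E4 against P301S/EKO, Csf1 rose by 1.46 (SE 0.16, adjusted p = 0.00157, edgeR), where 3.67% of the genes were called, 1.8% as higher and 1.87% as lower. The pairwise ratios were 1.68 in TREM2- (95% counting interval 1.42 to 1.94) and 1.27 in TREM2+ (1.095 to 1.44) on the log2 scale. The p-values rest on how far the 6 libraries depart from the additive model, with 2 residual degrees of freedom. The fit also borrows spread across genes, with 8.596 prior degrees of freedom. With 1 pool per genotype, the spread between replicate pools of a genotype was not measured.

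**Figure D1:**
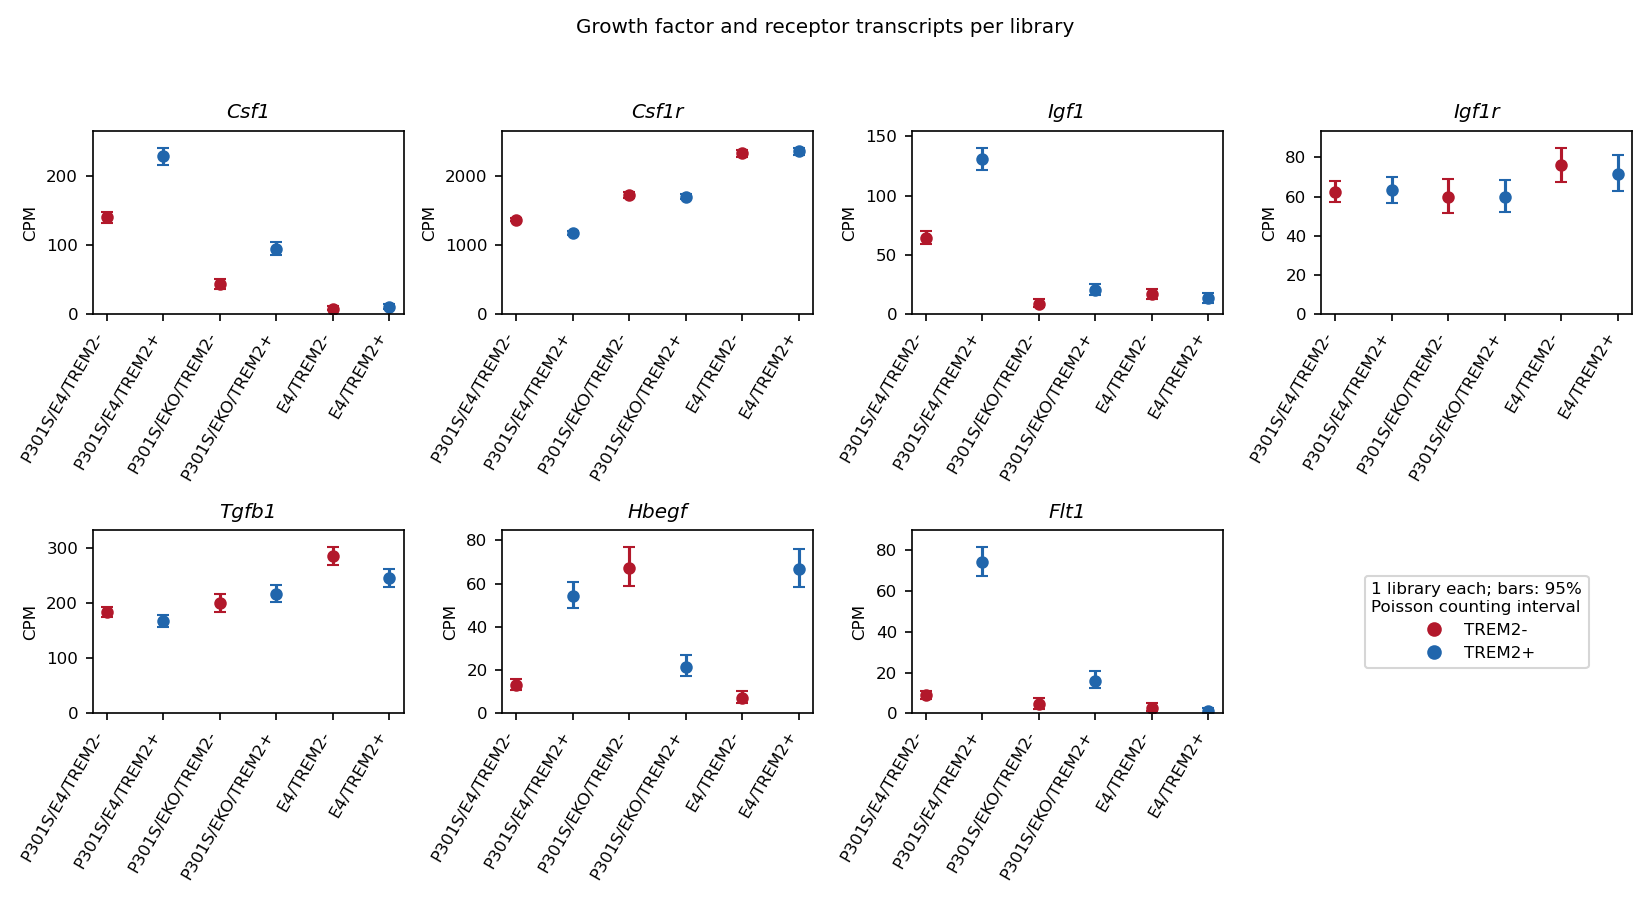
Levels of the 7 transcripts in CPM (y axis, from 0) in each of the 6 libraries (x axis), with red points for TREM2-, blue points for TREM2+ and bars for 95% Poisson counting intervals. Csf1 and Igf1 are highest in P301S/E4, Csf1r and Tgfb1 are highest in E4, Flt1 is at 74.1 CPM in the P301S/E4/TREM2+ library alone, and Hbegf follows no background.

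Igf1, the insulin-like growth factor, was high in the P301S/E4 libraries (ENSMUSG00000020053, GRCm38 chromosome 10, 87858265 to 87937042, plus strand, protein coding). It was at 64.6 CPM in the P301S/E4/TREM2- library and 131 CPM in the P301S/E4/TREM2+ library, at 9.14 CPM in the P301S/EKO/TREM2- library and 20.6 CPM in the P301S/EKO/TREM2+ library, and at 16.9 CPM in the E4/TREM2- library and 13.5 CPM in the E4/TREM2+ library. The P301S/E4 libraries stood above the other four, while the P301S/EKO and E4 ranges overlapped. Igf1 rose by 2.52 in P301S/E4 against E4 (SE 0.29, adjusted p = 2.38e-04, edgeR) and by 2.71 in P301S/E4 against P301S/EKO (SE 0.30, adjusted p = 0.00157, edgeR). Between single libraries its log2 ratio to E4 was 1.93 in TREM2- (1.57 to 2.32) and 3.28 in TREM2+ (2.85 to 3.73). Without the E4/TREM2- library the tau change was 3.29, and without the E4/TREM2+ library it was 1.83. The antisense gene Igf1os overlaps Igf1 and had 20 UMIs in all.

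In 3 of the 4 libraries outside P301S/E4, Igf1 was largely in nuclei with transcripts of other cell types. Such nuclei were those with at least 3 UMIs of the markers of 1 other type. These UMIs were counted without thinning, so deeper nuclei reached this limit more easily. With such nuclei left out, Igf1 was at 50.9 and 123 CPM in the P301S/E4/TREM2- and P301S/E4/TREM2+ libraries. It was then at 2.40 CPM in the P301S/EKO/TREM2- library, 14.8 CPM in the P301S/EKO/TREM2+ library, 3.28 CPM in the E4/TREM2- library and 2.28 CPM in the E4/TREM2+ library. On the remaining nuclei the tau change of Igf1 was 4.81 (SE 0.40, adjusted p = 9.77e-06, edgeR) and the APOE4 change 3.38 (SE 0.33, adjusted p = 3.28e-04, edgeR). Over the 14 alternatives its adjusted p stayed at or below 0.00149 for tau and at or below 0.00905 for APOE4.

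Border-associated macrophages were read through Mrc1, their mannose receptor gene, which was added after the values were seen. With every nucleus thinned to 500 UMIs, an Igf1 UMI was found in 10.8% of 269 nuclei with Mrc1 and 2.52% of 6735 without it in the P301S/E4/TREM2- library, and in 7.38% of 149 and 5.10% of 6037 in the P301S/E4/TREM2+ library. In P301S/EKO the shares were 17.7% of 62 against 0.0633% of 3161 in TREM2-, and 16% of 50 against 0.651% of 3532 in TREM2+. In E4 they were 8.81% of 193 against 0.284% of 4218 in TREM2-, and 9.03% of 144 against 0.174% of 3456 in TREM2+. Igf1 was thus more often detected beside Mrc1 in 6 of 6 libraries, and the exact binomial intervals were apart in 5 of them. Of the nuclei with an Igf1 UMI, 29 of 199 in the P301S/E4/TREM2- library and 11 of 319 in the P301S/E4/TREM2+ library held Mrc1, against 11 of 13 and 8 of 31 in the P301S/EKO/TREM2- and P301S/EKO/TREM2+ libraries, and 17 of 29 and 13 of 19 in the E4/TREM2- and E4/TREM2+ libraries. The summed level of 8 border-associated macrophage markers, all detected in every library, was 661 to 964 CPM in P301S/E4, 378 to 512 CPM in P301S/EKO and 920 to 1012 CPM in E4. Stab1 was the largest part of this sum in each library. In the P301S/E4/TREM2- library 775 nuclei had at least 3 unthinned UMIs of these markers, against 409 with an Mrc1 UMI. Single markers differed in direction. Ms4a7 was higher in P301S/E4 (177 and 186 CPM in TREM2- and TREM2+) than in E4 (117 and 70.0 CPM). Mrc1 was lower in P301S/E4 (121 and 78.9 CPM) than in E4 (180 and 134 CPM). Pf4, Cd163, F13a1, Lyve1 and Cbr2 were also lower at the same TREM2 genotype. Stab1 was higher in TREM2- and lower in TREM2+.

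**Figure D2:**
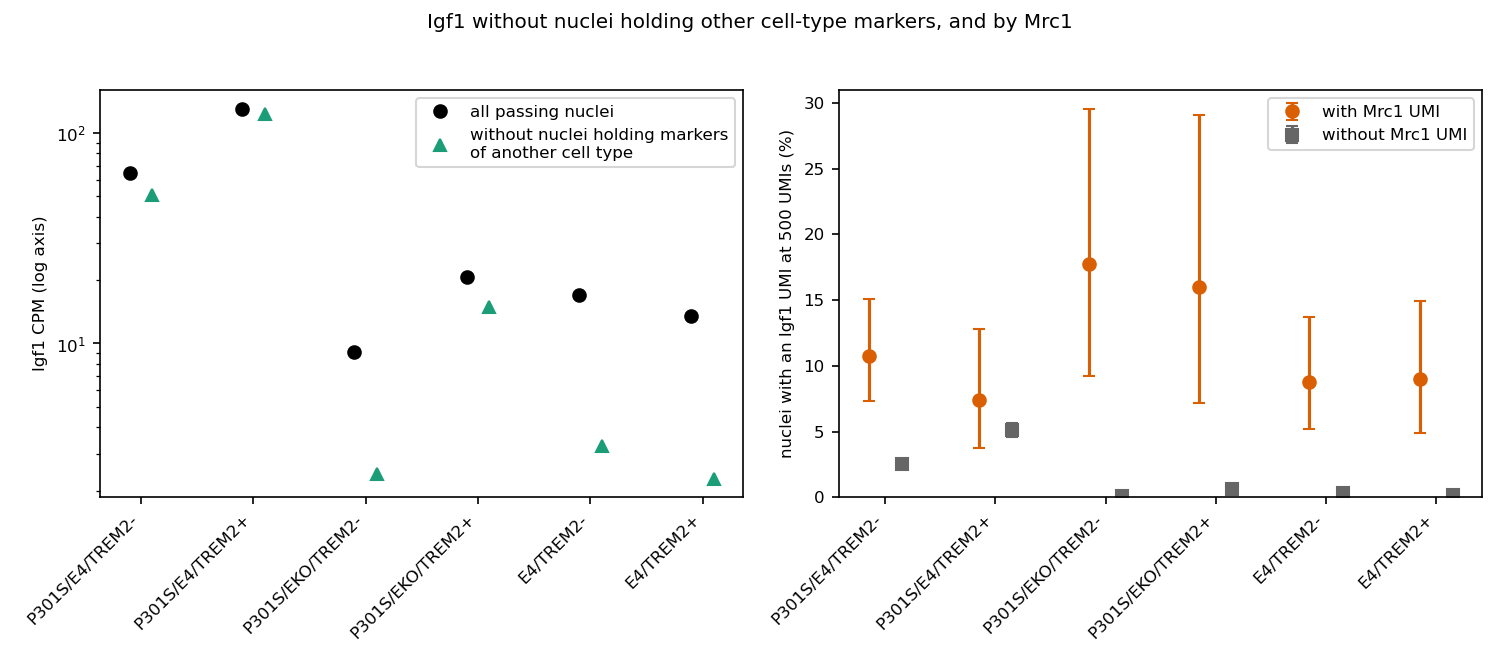
Left, Igf1 CPM on a log axis in each library, in all passing nuclei (black circles) and without nuclei holding markers of another cell type (green triangles). Right, percent of nuclei with an Igf1 UMI at 500 UMIs, with (orange) and without (grey) an Mrc1 UMI, with 95% exact binomial intervals. Without such nuclei Igf1 was at 50.9 and 123 CPM in P301S/E4, against 2.28 to 3.28 CPM in E4.

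Flt1, the VEGF receptor, had its highest level in a single library (ENSMUSG00000029648, GRCm38 chromosome 5, 147561604 to 147726011, minus strand, protein coding). It was at 8.83 CPM in the P301S/E4/TREM2- library and 74.1 CPM in the P301S/E4/TREM2+ library, at 4.41 CPM in the P301S/EKO/TREM2- library and 16.1 CPM in the P301S/EKO/TREM2+ library, and at 2.74 CPM in the E4/TREM2- library and 1.12 CPM in the E4/TREM2+ library. The E4 levels rest on 11 UMIs in the E4/TREM2- library and 4 UMIs in the E4/TREM2+ library, and their counting intervals overlapped. Flt1 rose by 3.94 in P301S/E4 against E4 (SE 0.66, adjusted p = 0.00217, edgeR). The pairwise log2 ratio was 1.69 in TREM2- (0.77 to 2.75) and 6.04 in TREM2+ (4.68 to 7.92), with intervals that did not meet. Without the E4/TREM2- library the fitted change was 5.86, without E4/TREM2+ 1.82, without P301S/E4/TREM2- 4.72 and without P301S/E4/TREM2+ 2.60. DESeq2 gave 3.55 with an adjusted p of 0.0588, the highest among the 14 alternatives, and the call was lost there.

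In P301S/E4 against P301S/EKO, Flt1 was 1.81 higher on the log2 scale and was not called (SE 0.51, adjusted p = 0.0818, edgeR). Leaving out P301S/E4/TREM2+ brought this to 0.39, and it was called without P301S/E4/TREM2- (2.49), P301S/EKO/TREM2- (1.97), E4/TREM2- (1.86) or E4/TREM2+ (1.86), with adjusted p-values of 2.80e-09 to 0.794 over the 14 alternatives. Endothelial cells are the textbook source of Flt1. The summed level of 8 endothelial markers was 19.0 to 24.5 CPM in P301S/E4, 24.3 to 41.3 CPM in P301S/EKO and 43.0 to 51.8 CPM in E4, mostly Pecam1, and in the P301S/E4/TREM2+ library no nucleus had 3 UMIs of them. Cldn5, an endothelial tight junction gene, had 1 UMI in that library. Without nuclei holding markers of another cell type, Flt1 was at 73.8 CPM there.

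The regions upstream of the genes that rose in the tau comparison were read for motifs of factors active in microglia. RefSeq promoter windows (GRCm38.p6) were matched for 5 of the 7 genes, and those of Csf1, Igf1 and Flt1 were searched in the 250 bases before the RefSeq start. The motifs were the PU.1 core GAGGAA, the AP-1 site TGANTCA and the E-box CACGTG on both strands, none overlapping another in these windows. Of 32851 promoter windows of this length, 23.25% held GAGGAA, 6.749% TGANTCA and 6.021% CACGTG. The Csf1 window held none of these, the Flt1 window held GAGGAA starting 130 bases before the start, and the Igf1 window held GAGGAA 60 bases and an AP-1 site 37 bases before it. The Igf1 window lies within an annotated exon, 2846 bases inside the GENCODE gene, and its sequence is not shown. The other windows are given 5′ to 3′ on the gene's strand, to show the only match found, with the motif in capitals.
Csf1, chr3:107760470-107760719, minus strand: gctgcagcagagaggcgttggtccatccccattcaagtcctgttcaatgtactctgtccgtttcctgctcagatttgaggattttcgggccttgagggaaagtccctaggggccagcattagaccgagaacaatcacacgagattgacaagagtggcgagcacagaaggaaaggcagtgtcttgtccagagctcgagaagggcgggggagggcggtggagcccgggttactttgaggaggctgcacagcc
Flt1, chr5:147726012-147726261, minus strand: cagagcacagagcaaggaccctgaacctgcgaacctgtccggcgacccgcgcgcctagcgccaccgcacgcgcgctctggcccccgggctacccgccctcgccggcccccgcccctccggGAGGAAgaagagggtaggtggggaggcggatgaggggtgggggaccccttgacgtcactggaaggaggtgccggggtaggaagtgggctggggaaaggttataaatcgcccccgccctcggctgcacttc
A match describes these letters and not binding, and which start site was used in these nuclei was not measured.

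The receptor Csf1r moved the other way from its ligand (ENSMUSG00000024621, GRCm38 chromosome 18, 61100598 to 61132149, plus strand, protein coding). It was at 1366 CPM in the P301S/E4/TREM2- library and 1177 CPM in the P301S/E4/TREM2+ library, at 1723 CPM in the P301S/EKO/TREM2- library and 1699 CPM in the P301S/EKO/TREM2+ library, and at 2322 CPM in the E4/TREM2- library and 2352 CPM in the E4/TREM2+ library. The backgrounds did not overlap, and within P301S/EKO and within E4 the neighbouring libraries did not differ beyond counting error. Csf1r fell by 0.93 in P301S/E4 against E4 (SE 0.11, adjusted p = 3.02e-04, edgeR). Against P301S/EKO its change was -0.42 and was not called (SE 0.11, adjusted p = 0.0667, edgeR), and without P301S/E4/TREM2- it was -0.48 and called, with adjusted p-values of 0.0187 to 0.398 over the 14 alternatives. The level of 9 microglia markers given above was also lower in P301S/E4 than in E4, and its part in the Csf1r change was not tested. Hmgxb3 overlaps Csf1r on the opposite strand and had 1394 UMIs, against 5466 or more for Csf1r in each library.

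Tgfb1 was at 184 CPM in the P301S/E4/TREM2- library and 168 CPM in the P301S/E4/TREM2+ library, at 200.5 CPM in the P301S/EKO/TREM2- library and 218 CPM in the P301S/EKO/TREM2+ library, and at 286 CPM in the E4/TREM2- library and 246 CPM in the E4/TREM2+ library (ENSMUSG00000002603, GRCm38 chromosome 7, 25687002 to 25705077, plus strand, protein coding). The order of the backgrounds was that of Csf1r, but for Tgfb1 some counting intervals of P301S/EKO overlapped those of P301S/E4 and of E4. Tgfb1 fell by 0.65 in P301S/E4 against E4 (SE 0.13, adjusted p = 0.00617, edgeR). Without the E4/TREM2- library its change was -0.51 and not called, with adjusted p-values of 7.15e-04 to 0.136 over the 14 alternatives. Against P301S/EKO its change was -0.24 and was not called (SE 0.13, adjusted p = 0.363, edgeR).

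Igf1r, the receptor of IGF1, stayed within 59.9 to 76.0 CPM (ENSMUSG00000005533, GRCm38 chromosome 7, 67952827 to 68233668, plus strand, protein coding). It was at 62.6 CPM in the P301S/E4/TREM2- library and 63.2 CPM in the P301S/E4/TREM2+ library, at 59.9 CPM in both P301S/EKO libraries, and at 76.0 CPM in the E4/TREM2- library and 71.7 CPM in the E4/TREM2+ library. Ranked by level, the counting intervals of neighbouring libraries overlapped. The log2 ratio of P301S/E4 over E4 was -0.28 in TREM2- (counting interval -0.49 to -0.07), beyond counting error, and -0.18 in TREM2+ (-0.42 to 0.05). Its changes were -0.28 for tau (SE 0.14, adjusted p = 0.225, edgeR) and 0.08 for APOE4 (SE 0.14, adjusted p = 0.833, edgeR), and neither was called. A change that misses the threshold is not a sign of equal levels.

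**Figure D3:**
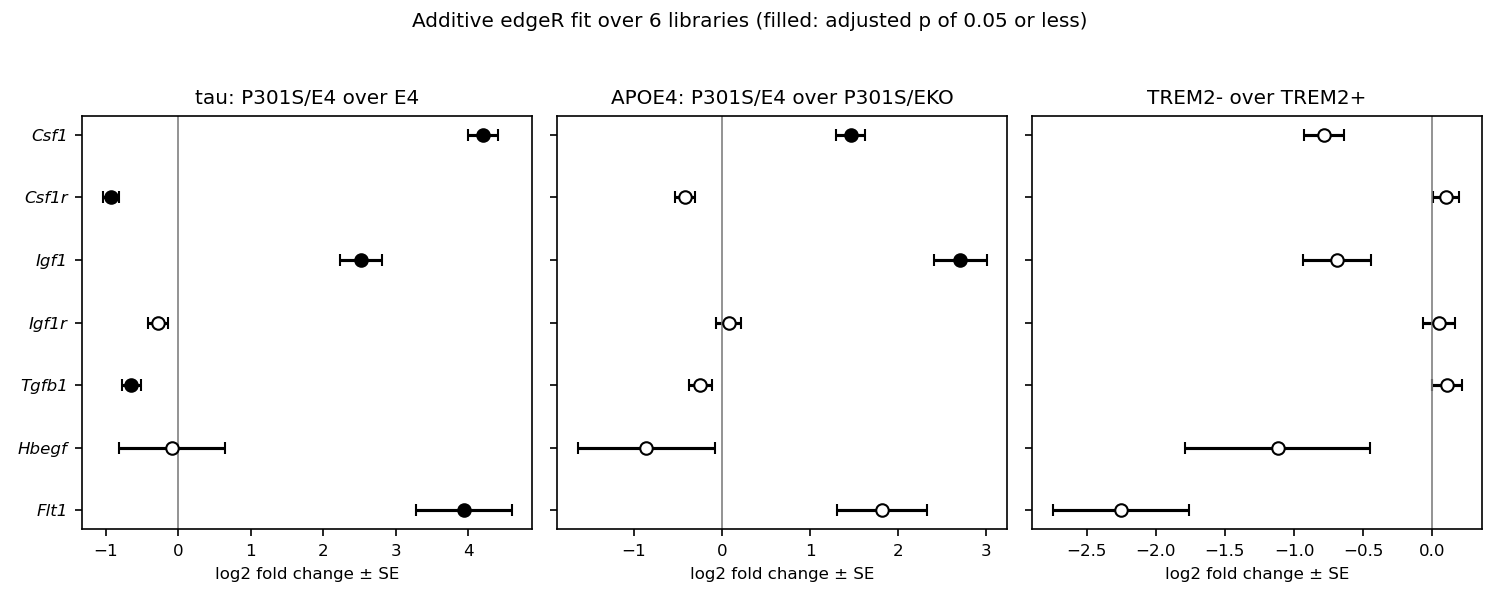
Log2 fold change with its SE (x axis; bars are 1 SE) of each gene in the tau, APOE4 and TREM2 comparisons of the additive edgeR fit over 6 libraries, with filled points for an adjusted p of 0.05 or less. In the tau panel Csf1, Igf1 and Flt1 lie right of 0 and Csf1r and Tgfb1 left of it, in the APOE4 panel Csf1 and Igf1 are filled, and in the TREM2 panel none is.

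In TREM2- against TREM2+ over the 3 backgrounds, none of the 7 genes was called by edgeR, at a background of 0.112% of genes called (14, with 0.032% called as higher and 0.0799% as lower, against 778 at an unadjusted p under 0.05). DESeq2 called none of the 7 either. Csf1 had a change of -0.78 (SE 0.15, adjusted p = 0.107, unadjusted p = 2.64e-04, edgeR) and was lower in the TREM2- library of 3 of 3 backgrounds. The ratios were -0.70 in P301S/E4 (counting interval -0.82 to -0.59), -1.12 in P301S/EKO (-1.41 to -0.83) and -0.33 in E4 (-1.05 to 0.37). Csf1 was called when P301S/E4/TREM2- (-0.87), E4/TREM2- (-0.88) or E4/TREM2+ (-0.88) was left out, fits with 1 residual degree of freedom, and its adjusted p spanned 9.76e-05 to 0.450 over the 14 alternatives.

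Igf1 had a TREM2 change of -0.69 (SE 0.25, adjusted p = 0.626, edgeR). Its ratio was -1.02 in P301S/E4 (-1.18 to -0.86), -1.17 in P301S/EKO (-1.84 to -0.54) and 0.33 in E4 (-0.23 to 0.89). Without either E4 library the fitted change was -1.07 and called, without P301S/E4/TREM2- it was -0.31 and without P301S/E4/TREM2+ -0.32, with adjusted p-values of 0.0158 to 1 over the 14 alternatives. Flt1 had a change of -2.25 (SE 0.49, adjusted p = 0.187, edgeR), with ratios of -3.07 in P301S/E4 (-3.44 to -2.71), -1.86 in P301S/EKO (-2.82 to -1.01) and 1.28 in E4 (-0.47 to 3.39), the last from 11 and 4 UMIs. Flt1 was called at -2.61 without nuclei holding markers of another cell type, and without P301S/EKO/TREM2- (-2.35), P301S/EKO/TREM2+ (-2.37) or either E4 library (-2.72). Without P301S/E4/TREM2- it was -1.02 and without P301S/E4/TREM2+ -0.97, and its adjusted p spanned 1.95e-14 to 1. Csf1r had a TREM2 change of 0.10 (SE 0.09), Igf1r of 0.05 (SE 0.12) and Tgfb1 of 0.10 (SE 0.11), with adjusted p-values of 0.959 to 0.988 by edgeR. Lpl, the co-detection marker, fell by 1.73 (SE 0.15, adjusted p = 6.19e-04, edgeR), and Top2a was 1.66 higher and not called (SE 0.38, adjusted p = 0.212, edgeR). Whether a TREM2 difference depends on the background could not be tested, since an interaction leaves no residual degree of freedom.

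Hbegf, the EGF receptor ligand, varied between libraries without following tau, APOE4 or TREM2 (ENSMUSG00000024486, GRCm38 chromosome 18, 36504927 to 36515805, minus strand, protein coding). It was at 13.4 CPM in the P301S/E4/TREM2- library and 54.5 CPM in the P301S/E4/TREM2+ library, at 67.5 CPM in the P301S/EKO/TREM2- library and 21.7 CPM in the P301S/EKO/TREM2+ library, and at 7.22 CPM in the E4/TREM2- library and 66.9 CPM in the E4/TREM2+ library. The TREM2- library was the lower in P301S/E4 (log2 ratio -2.03, counting interval -2.35 to -1.71) and in E4 (-3.21, -3.82 to -2.65) and the higher in P301S/EKO (1.64, 1.26 to 2.03). The additive fit gave -1.12 for TREM2 (SE 0.67, adjusted p = 0.910), -0.09 for tau (SE 0.74, adjusted p = 0.961) and -0.86 for APOE4 (SE 0.78, adjusted p = 0.618), all by edgeR and none called. Without P301S/EKO/TREM2- or P301S/EKO/TREM2+ the TREM2 change was -2.51 or -2.52 and called. It was -0.40 without P301S/E4/TREM2-, -0.43 without P301S/E4/TREM2+, -0.27 without E4/TREM2- and -0.26 without E4/TREM2+, with adjusted p-values of 6.54e-24 to 1 over the 14 alternatives. The APOE4 change was 1.60 and called without P301S/EKO/TREM2-, and -2.61 and called without P301S/EKO/TREM2+, with adjusted p-values of 1.81e-17 to 0.986. With 1 pool per genotype, a property of a pool cannot be told apart from its genotype.

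**Figure D4:**
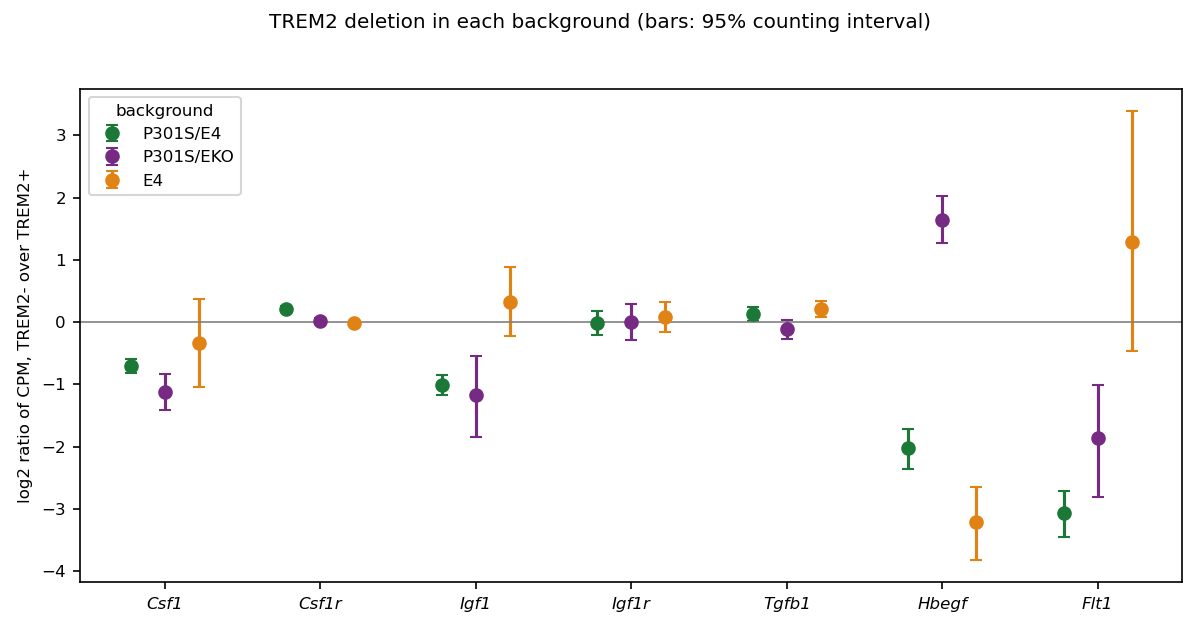
Log2 ratio of CPM, TREM2- over TREM2+ (y axis), for each gene (x axis) in P301S/E4 (green), P301S/EKO (purple) and E4 (orange), with 95% counting intervals. Csf1 lies below 0 in all 3 backgrounds, with an interval that crosses 0 in E4. Igf1 and Flt1 lie below 0 in the P301S backgrounds, and Hbegf is at 1.64 in P301S/EKO and at -2.03 and -3.21 in the others.

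The share of nuclei with a UMI was compared after every nucleus had been thinned to 500 UMIs, which left out 1827 nuclei in the P301S/EKO/TREM2- library, 417 in the E4/TREM2- library and 1488 in the E4/TREM2+ library that held fewer. Csf1 was detected in 5.54% of nuclei in the P301S/E4/TREM2- library and 9.28% in the P301S/E4/TREM2+ library, in 2.26% and 3.99% in the P301S/EKO/TREM2- and P301S/EKO/TREM2+ libraries, and in 0.453% and 0.472% in the E4/TREM2- and E4/TREM2+ libraries. Unthinned, the TREM2- and TREM2+ shares were 11.8% and 14.9% in P301S/E4, 2.50% and 7.54% in P301S/EKO, and 0.663% and 0.688% in E4. Csf1r was detected in 44.5% to 49.4% of thinned nuclei in P301S/E4, 56.1% to 56.4% in P301S/EKO and 67.6% in both E4 libraries, against 59.99% to 79.1% unthinned.

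Igf1 was detected in 2.84% and 5.16% of thinned nuclei in the P301S/E4/TREM2- and P301S/E4/TREM2+ libraries and in 0.403% to 0.865% in the other four libraries (0.475% to 8.94% unthinned over all libraries). Flt1 was detected in 0.271% and 3.27% in the P301S/E4/TREM2- and P301S/E4/TREM2+ libraries and in 0.0278% to 0.726% in the others (0.0786% to 5.51% unthinned). Tgfb1 was detected in 7.84% to 13.3%, Igf1r in 2.51% to 4.10% and Hbegf in 0.272% to 3.41% (11.3% to 19.4%, 3.49% to 6.55% and 0.559% to 4.69% unthinned).

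Free RNA puts UMIs into nuclei that do not express a gene, and shares were set beside those of 164 nuclei with at least 5 UMIs of neuron markers (median 3248.5 UMIs). At 500 UMIs, 162 of them held Csf1 in 0.617% (95% exact interval 0.0156% to 3.39%), Csf1r in 5.56%, Tgfb1 in 0.617% and Flt1 in 0 nuclei, which allows up to 1.85%. The Csf1 share in both E4 libraries was under this value, which rests on 1 nucleus pooled over the libraries. Its interval also covers the Csf1 share of 2.26% in the P301S/EKO/TREM2- library. Background and low expression of Csf1 therefore cannot be told apart in E4. The Flt1 share of whole libraries was under its limit outside the P301S/E4/TREM2+ library, but a limit on whole libraries does not describe a share that is uneven between nuclei, as that of Flt1 was by Gpnmb and by Lpl. Igf1 (1.23%), Igf1r (2.47%) and Hbegf (3.09%) are genes that neurons are known to express, so their shares in the neuron-marker nuclei give no scale of free RNA. Intervals and limits of this kind cover counting error only.

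Within P301S/E4, Igf1 and Flt1 were detected more often in nuclei with a Gpnmb UMI. Gpnmb itself was at 302 and 225 CPM in TREM2- and TREM2+ of P301S/E4, 1.26 and 8.56 CPM in those of P301S/EKO, and 0.747 and 0 CPM in those of E4. Only P301S/E4 held at least 20 such nuclei at 500 UMIs, 488 in TREM2- and 372 in TREM2+, so no test was run. In the P301S/E4/TREM2- library, Igf1 was found in 7.38% of nuclei with Gpnmb (5.22% to 10.1%) and 2.50% without it, and in the P301S/E4/TREM2+ library in 16.7% (13.02% to 20.9%) and 4.42%. Flt1 was found in 2.46% with Gpnmb (1.28% to 4.26%) and 0.107% without it in the P301S/E4/TREM2- library, and in 9.41% (6.64% to 12.8%) and 2.87% in the P301S/E4/TREM2+ library. Unthinned, Igf1 was in 18.8% against 4.39% in TREM2- and 28.6% against 6.97% in TREM2+, and Flt1 in 4.31% against 0.337% and 18.1% against 4.25%. Of the 19 nuclei with Flt1 in the P301S/E4/TREM2- library, 12 held Gpnmb, against 35 of 202 in the P301S/E4/TREM2+ library.

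Csf1 at 500 UMIs was detected in 5.74% of nuclei with Gpnmb against 5.52% without it in the P301S/E4/TREM2- library and 14.0% against 8.98% in the P301S/E4/TREM2+ library. Csf1r was less often detected beside Gpnmb in both libraries, in 33.6% against 50.6% of nuclei in the P301S/E4/TREM2- library and 33.3% against 45.2% in the P301S/E4/TREM2+ library. Tgfb1, Igf1r and Hbegf had overlapping intervals in both at this depth. Unthinned, Csf1 was in 20% against 10.8% in TREM2- and 22.2% against 14.2% in TREM2+, and Csf1r in 63.8% against 71.5% and 55.7% against 60.4%, where nuclei with a marker UMI can also be deeper.

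Lpl, a lipoprotein lipase gene of activated microglia, was found in at least 20 nuclei in 4 libraries, all with P301S. Csf1 was detected in 9.15% of 295 nuclei with Lpl and 5.38% of 6709 without it in the P301S/E4/TREM2- library, and in 17.3% of 763 and 8.15% of 5423 in the P301S/E4/TREM2+ library. In P301S/EKO it was detected in 5.88% of 51 and 2.21% of 3172 in TREM2-, and in 14.0% of 143 and 3.58% of 3439 in TREM2+. The exact binomial intervals were apart in 3 of these libraries but not in P301S/EKO/TREM2-, where 3 of the 51 Lpl nuclei held Csf1. The mean over libraries was 11.6% with Lpl and 4.83% without it, a difference of 6.75 ± 3.53 percentage points (SD, n = 4), higher in 4 of 4 libraries. An exact two-sided sign-flip permutation test gave p = 0.125, the smallest that 4 libraries allow, and 0.438 after Benjamini-Hochberg adjustment over the 7 genes, so this design could not reach 0.05.

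Csf1r was lower beside Lpl in 4 of 4 libraries, by -3.64 ± 3.38 percentage points (SD, n = 4, the same exact p of 0.125), but only when nuclei were thinned. The exact binomial intervals were apart in 0 of these libraries, and in the P301S/E4/TREM2+ library the shares were 44.43% and 44.46%. Csf1r was higher beside Lpl in 1 of 4 libraries when nuclei holding markers of another cell type were left out. The same held without nuclei above 2 times the median UMI. In the same 4 libraries unthinned it was higher beside Lpl in 4 of 4, by 3.77 ± 1.86 percentage points (SD, n = 4). Igf1 was higher beside Lpl in 3 of 4 libraries, with exact binomial intervals apart in only 1, P301S/E4/TREM2+. The shares were 3.39% against 2.82% in the P301S/E4/TREM2- library and 9.70% against 4.52% in the P301S/E4/TREM2+ library. In P301S/EKO they were 1.40% (2 of 143 nuclei) against 0.843% in TREM2+, and 0 of 51 nuclei against 0.410% in TREM2-. Flt1 was found in 0 of 295 Lpl nuclei in the P301S/E4/TREM2- library, which allows up to 1.02%, against 57 of 763 in the P301S/E4/TREM2+ library. In P301S/EKO it was found in 0 of 51 Lpl nuclei in TREM2- and 6 of 143 in TREM2+. The difference between these libraries was not tested.

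**Figure D5:**
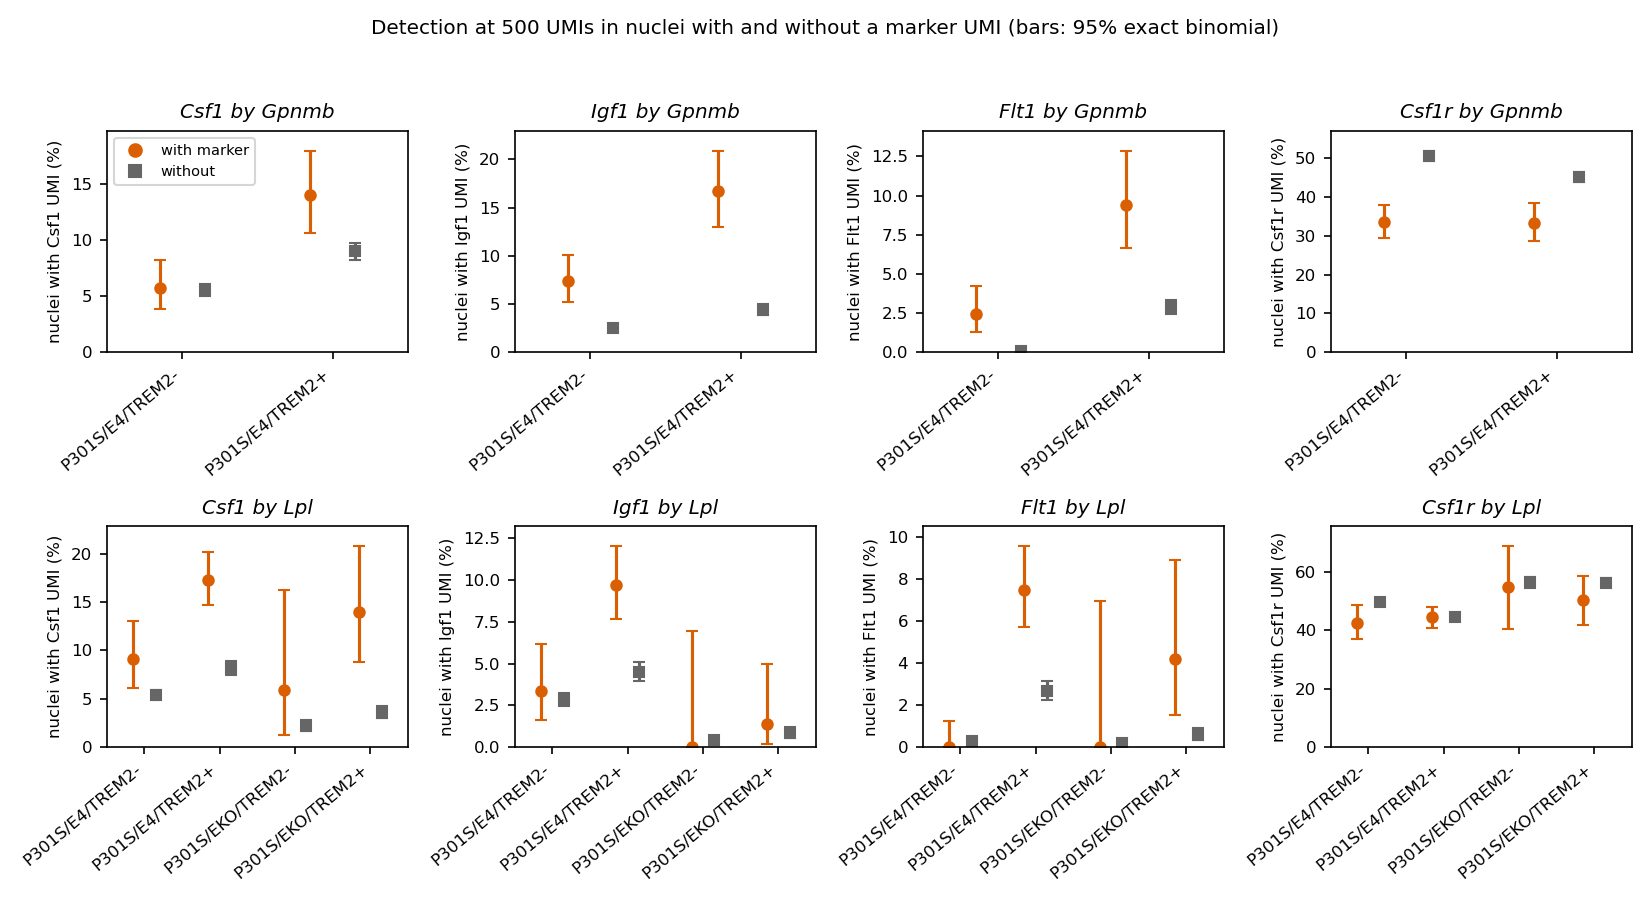
Percent of nuclei (y axis, from 0) with a UMI of Csf1, Igf1, Flt1 or Csf1r after thinning to 500 UMIs, in nuclei with (orange circles) and without (grey squares) a Gpnmb UMI (upper row) or an Lpl UMI (lower row), by library, with 95% exact binomial intervals. Igf1 and Flt1 lie higher beside Gpnmb in both P301S/E4 libraries, and Csf1r lies lower beside it. Csf1 lies higher beside Lpl in 4 of 4 libraries, with intervals apart in 3.

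At 500 UMIs, Top2a, a DNA topoisomerase of dividing cells, was found in at least 20 nuclei only in the P301S/E4/TREM2- library, in 99 nuclei. Among these, Csf1 was detected in 4.04% against 5.56% of the nuclei without Top2a, Csf1r in 42.4% against 49.5%, Igf1 in 3.03% against 2.84%, Igf1r in 5.05% against 2.87% and Tgfb1 in 6.06% against 8.33%. Hbegf and Flt1 were in 0 of the 99, which allows up to 3.03%. No gene's share among Top2a nuclei had an interval apart from that of the remaining nuclei at this depth. Unthinned, Csf1 was in 23.0% of 174 nuclei with Top2a against 11.6% without it, and Igf1 in 12.6% against 5.80%.

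The changes of the ligands Csf1 and Igf1 were not limited to nuclei with a marker UMI. Without nuclei holding a Gpnmb, Lpl or Top2a UMI, an alternative added after the values were seen, Csf1 was at 127 and 172 CPM in the P301S/E4/TREM2- and P301S/E4/TREM2+ libraries, 41.0 and 80.4 CPM in the P301S/EKO/TREM2- and P301S/EKO/TREM2+ libraries and 8.33 and 9.71 CPM in the E4/TREM2- and E4/TREM2+ libraries. The tau changes on these nuclei were 3.99 for Csf1, 2.00 for Igf1 and 3.20 for Flt1, and the APOE4 changes were 1.35 for Csf1 and 2.35 for Igf1, all called (adjusted p at most 0.0288, edgeR). A nucleus with no UMI of a marker can still express it at this depth. For Flt1 the level in P301S/E4 was then 3.26 CPM in TREM2- and 43.2 CPM in TREM2+, against 2.27 and 1.14 CPM in E4. Its log2 ratio of P301S/E4 over E4 was 0.52 in TREM2- (counting interval -0.69 to 1.85), not beyond counting error. In TREM2+ it was 5.24 (3.86 to 7.13).

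Related genes of the 5 ligand and receptor families were read from hand-written lists of 97 genes, of which 96 were in the matrices and 57 were tested. In P301S/E4 against E4, 8 rose (14.0%, against 7.8% of all genes) and 5 fell (8.77%, against 9.24%), and their median log2 change was -0.0047, against -0.0015 over all genes. In the CSF1 family of receptors and signalling genes, 3 of 14 rose: Csf2ra (1.05) and Csf2rb (0.76), the chains of the GM-CSF receptor, and Ptpn6 (0.58), the phosphatase SHP-1 that restrains CSF1R signalling. In the VEGF and PDGF family 3 of 7 rose: the co-receptors Nrp1 (1.09) and Nrp2 (1.06) and the ligand Pdgfa (1.28).

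In the TGF-beta family, 3 of 21 fell: the type I receptor Tgfbr1 (-0.84), the co-receptor Eng (-1.67) and the integrin subunit Itgav (-0.64), which helps release latent TGF-beta. Thbs1, an activator of latent TGF-beta, rose (1.38). In the IGF family 1 of 7 fell, the binding protein Igfbp4 (-1.73). In the EGF family the sheddase Adam10 fell (-0.65) and Rhbdf2 rose (1.72), which encodes iRhom2, needed for maturation of the HB-EGF sheddase ADAM17. Rhbdf2 also rose against P301S/EKO (1.29, SE 0.26, adjusted p = 0.0229, edgeR). It was the 1 of 57 called there (1.75%), near the 1.8% of all genes called as higher. For TREM2 0 of 57 were called, against 0.112% of all genes.

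The genes whose levels ran closest to each member over the 6 libraries were named by Pearson's r of log2(CPM + 10) among 7549 genes, as a description over libraries that differ in depth. For Csf1 these were Ifnar1 (r = 0.998), a chain of the type I interferon receptor, and Cst7 (0.997), the cystatin F gene, at 77.8 and 135 CPM in the P301S/E4/TREM2- and P301S/E4/TREM2+ libraries and 1.99 and 1.41 CPM in the E4/TREM2- and E4/TREM2+ libraries. Csf1r ran with Slco2b1 (0.997), Igf1 with Dnase1l1 (0.996) and Dhrs3 (0.990), and Igf1r with Magt1 (0.995) and Rtn3 (0.994). Tgfb1 ran with Gm26798 (0.989) and Atp13a3 (0.988), Flt1 with Eif4h (0.995) and Zbed5 (0.983), and Hbegf with 2010107E04Rik (0.987) and Tmco6 (0.982). A high r can come with a small range, as for Eif4h, which spanned 158 to 164 CPM.

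The authors' deposited tables of log fold changes, whose base was not stated and whose p-values were taken over nuclei, held the same genes. In the authors' deposited table of a state they named TERM against homeostatic nuclei, Igf1 was at 3.24, Flt1 at 3.41, Csf1 at 2.12 and Csf1r at -0.61, while Igf1r, Tgfb1 and Hbegf had adjusted p-values of 1. The authors' deposited marker table listed Csf1 for TERM (2.14) and for a group named Inflam (1.25), Igf1 for TERM (2.9) and Csf1r for a group named Ground (0.40). The authors' deposited table of P301S/E4/TREM2+ over P301S/E4/TREM2-, whose sign runs opposite to the TREM2 values above, gave 2.59 for Flt1, 0.91 for Igf1, 0.59 for Csf1 (adjusted p = 0.496) and 0.52 for Hbegf (adjusted p = 1). For Hbegf the log2 ratio of CPM, TREM2- over TREM2+ in P301S/E4, was -2.03, larger in size than the authors' 0.52. The cause of this difference was not tested.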

How the data were processed

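Nuclei were sorted for PU.1 and sequenced on the 10x Genomics platform, per the labels' protocols. The deposited matrices hold raw UMI counts per gene and nucleus, made by the authors with software version 3.0.1, per the file headers, and with Cell Ranger on mm10, per the submitters' processing notes. The authors' 3 deposited tables hold log fold changes and a score of unstated base, and p-values and adjusted p-values over nuclei. No column of per-sample values was left unused. Nuclei with under 200 genes or over 5% mt- UMIs were left out. The sort excluded doublets by gating, per the labels' protocols, and no doublet caller was run here, so doublets may remain.

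Counts were summed per library and fitted with edgeR 4.0.16 (R 4.3.3, limma 3.58.1; glmQLFit, TMM, filterByExpr by TREM2 genotype) with background and TREM2 genotype as additive terms, over 12515 genes, with 2 residual degrees of freedom and a common dispersion of 0.0171. Genes with an adjusted p (Benjamini-Hochberg) of 0.05 or less were called. On simulated data for the TREM2 comparison over 12229 genes, 96 of 100 genes changed by 1 on the log2 scale and 100 of 100 changed by 2 were called, with 14 false calls. The changed genes were drawn from well-counted genes only. Counts were drawn at the fitted dispersion, with the same change in every background. These rates therefore do not describe genes with few UMIs or changes that differ between backgrounds. DESeq2 1.42.0, other normalizations, filters on genes and nuclei, and leaving out each library were alternatives. Thinning drew 500 UMIs per nucleus without replacement (300 as an alternative). Pairwise log2 ratios have exact conditional binomial intervals, CPM exact Poisson and shares exact Clopper-Pearson intervals at 95%. Gene locations came from GENCODE vM21 (GRCm38). The members and lists were chosen with earlier results of these data known. Named genes were the 7 members, the markers Gpnmb, Lpl and Top2a, up to 4 called genes per pathway list and comparison by lowest p, and the 2 genes most like each member, of which 1 is not reported here.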

Additional observations from a re-analysis of the deposited data

Results flagged for a closer look

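Hbegf was the only one of the 7 genes whose ratios between libraries took opposite signs under the same comparison with counting intervals on opposite sides of 0. TREM2- over TREM2+ was -2.03 in P301S/E4 and -3.21 in E4 on the log2 scale, but 1.64 in P301S/EKO. P301S/E4 over E4 was 0.89 in TREM2- and -0.29 in TREM2+. P301S/E4 over P301S/EKO was -2.34 in TREM2- and 1.33 in TREM2+. These differences were not tested, since each genotype is 1 pool and the counting intervals do not cover variation between pools.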

How the results depend on the processing

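Replicates could not be paired between genotypes, because each genotype has 1 library and the labels give no replicate numbers. The number of genes called moved by more than 1.5 times in several settings. For TREM2 (14 genes) it was 226 with no expression filter, 24 without nuclei holding markers of another cell type, and 11 to 114 with a library left out. For tau (2133 genes) it was 1347 with DESeq2 and 1083 to 2788 with a library left out. For APOE4 (459 genes) it was 1258 with no expression filter, 297 with DESeq2, 170 without nuclei holding a Gpnmb, Lpl or Top2a UMI, and 282 to 1300 with a library left out. With no expression filter Csf1, Igf1, Hbegf and Flt1 were also called for TREM2, and Csf1r, Hbegf and Flt1 for APOE4, and Flt1 was called for APOE4 with no composition factor (adjusted p = 0.0487). Signs changed only for values that were not called, save 1: the Hbegf APOE4 change was 1.60 without P301S/EKO/TREM2-, and it was 0.093 without P301S/E4/TREM2- (range -2.61 to 1.60 with a library left out). The Hbegf tau change was 0.027 with DESeq2, and without a library it ranged from -1.16 to 1.94, with 0.47 without P301S/E4/TREM2-, 0.13 without P301S/EKO/TREM2-, 0.12 without P301S/EKO/TREM2+ and 1.94 without E4/TREM2+. The Igf1r TREM2 change was -0.0032 without E4/TREM2- and -0.0040 without E4/TREM2+, in a range of -0.0040 to 0.094.

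In co-detection with Lpl, the mean difference in percentage points changed sign without thinning, in the same 4 libraries, for Csf1r (3.77), Igf1r (2.27) and Tgfb1 (4.67), an alternative chosen after seeing the data, but not for Hbegf (1.03). Without thinning, E4/TREM2+ also reached 20 Lpl nuclei, and over these 5 libraries the means were 0.29 for Csf1r, 3.48 for Igf1r, 4.69 for Tgfb1 and -0.060 for Hbegf. At 300 UMIs it changed sign for Igf1r (0.036), Tgfb1 (1.26) and Hbegf (-0.097), and without P301S/EKO/TREM2- for Tgfb1 (0.80, in a range of -1.67 to 0.80) and Hbegf (-0.0070, in a range of -0.0070 to 1.13). With a library left out, Csf1 ranged from 5.53 to 7.78, and it was higher beside Lpl under each of the 11 alternatives. The causes of these changes were not tested. Levels moved beyond their counting interval for 9 of 42 values with equal weight per nucleus, 12 without nuclei holding other markers and 10 without nuclei holding a state marker. Shares moved for 33 of 42 with no thinning and 34 at 300 UMIs.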

Other observations

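Hbegf levels ran with those of Tmco6, which lies 219.2 kb from Hbegf on the same chromosome. Tmco6 was picked for its high r with Hbegf among 7549 genes over these libraries, so a shared order was given by that choice. Tmco6 was at 27.9 and 38.6 CPM in the P301S/E4/TREM2- and P301S/E4/TREM2+ libraries, at 41.3 and 29.4 CPM in the P301S/EKO/TREM2- and P301S/EKO/TREM2+ libraries, and at 26.9 and 43.0 CPM in the E4/TREM2- and E4/TREM2+ libraries, the same order of TREM2 genotypes within each background as Hbegf. Among 11 genes within 500 kb that had 500 or more UMIs, read after the values were seen, r with Hbegf over the 6 libraries ran from -0.41 (Ik) to 0.98 (Tmco6), with 0.83 for Zmat2 and 0.71 for Sra1. The nearest, Ankhd1 at 44.2 kb and Pfdn1 at 50.4 kb, had r of -0.31 and -0.03.

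In nuclei with the macrophage transcript Mrc1, Csf1 was less often detected in 5 of 6 libraries at 500 UMIs, but in 3 of 6 without thinning, whereas Igf1 was more often detected in 6 of 6 both ways. The Csf1 shares at 500 UMIs were 1.86% with Mrc1 against 5.69% without it in the P301S/E4/TREM2- library, and 2.68% against 9.44% in the P301S/E4/TREM2+ library, with exact binomial intervals that did not meet. Unthinned, they were 11.98% against 11.83% in P301S/E4 with TREM2- and 6.57% against 15.2% with TREM2+. In P301S/EKO and E4, nuclei with Mrc1 were too few to show a difference in Csf1 at 500 UMIs.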
